A study of Mus musculus with 11 samples.

Results

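*Tslp* and *Cx3cl1* are a pair of genes for signals that epithelial cells send to immune cells, and both were measured by bulk RNA sequencing in HaCa4 cells grown alone or with lymphatic endothelial cells (LECs). They were selected by gene symbol from the 290 genes listed for HaCa4 cells, so the members are 2 of 290, and both were found. They were chosen with the fall of their transcripts from HaCa4 control to HaCa4-sorted already known. Their values in that comparison are therefore given as a description, with no test. HaCa4 is a mouse skin squamous carcinoma line, taken from carcinomas that carry H-Ras G12V and were promoted with the phorbol ester TPA. HaCa4 control (n = 2) was grown as a single culture, and HaCa4-sorted (n = 3) was recovered by FACS from co-cultures of 24 h. The LECs of the co-culture carry the H-2Kb-tsA58 transgene, which makes a heat-sensitive SV40 large T antigen, and clones of this line were used interchangeably in the study. Before sorting, cancer cells were stained with the dye CFSE and LECs with an antibody to CD31, the protein of *Pecam1*. Whether the HaCa4 control cells were also stained and sorted is not given in the sources used here, so that co-culture and handling cannot be told apart.

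Thymic stromal lymphopoietin, the product of *Tslp*, is a cytokine related to interleukin 7. It is released by keratinocytes and other barrier epithelia and is received by a pair of chains encoded by *Crlf2* and *Il7r*, mainly on dendritic cells, lymphocytes, and innate immune cells, where it favours type-2 responses. Fractalkine, the product of *Cx3cl1*, is a chemokine that is held at the cell surface on a mucin-like stalk and acts there as an adhesion molecule. The proteases ADAM10 and ADAM17 release it as a soluble attractant, and its receptor, CX3CR1, is found on monocytes, natural killer cells, and T cells.

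By the RefSeq annotation of the build to which the authors aligned their reads, GRCm38.p6, *Tslp* (gene ID 53603) lies on chromosome 18 from 32815383 to 32819799. Its protein-coding transcript in GENCODE M21 has 5 exons, 1126 bases, and a coding length of 420 bases, and the other annotated transcript retains an intron. The noncoding gene *4930455D15Rik* spans *Tslp*. TPM values are scaled by transcript length, so the levels of the *Tslp* and *Cx3cl1* transcripts can be compared. The deposited values are per gene and do not separate transcripts, and the strand setting of the quantification is not given in the sources used here.

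*Cx3cl1* (gene ID 20312) lies on chromosome 8 from 94772180 to 94782427, between the chemokine genes *Ccl22*, which ends 20791 bases before it, and *Ccl17*, which starts 26952 bases after it. Neither neighbour is among the listed genes, and they were not analysed here. The main *Cx3cl1* transcript has 3 exons, 3315 bases, and a coding length of 1185 bases. The noncoding gene *Gm51543* overlaps the end of the *Cx3cl1* locus by 1327 bases, and without a strand setting the reads of this overlap cannot be told apart.

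The start of *Cx3cl1* is shown because it is the promoter of the more abundant member. The window of RefSeq, chr8:94771930-94772229 on the plus strand of GRCm38.p6, holds 250 bases before and 50 bases after the annotated start. It has a GC content of 64.7%, against a median of 52.7% over 32851 windows of the same length. In the following stretches, 30 bases each, capitals mark the TATA box motif (TATAAA, chr8:94772174-94772179) and the GC box motif (GGGCGG, chr8:94772153-94772158).
Cx3cl1 TATA box: ctgccagcccatTATAAAaagcaaccgaga
Cx3cl1 GC box: tgcgggcgccggGGGCGGaggctgccagcc
On either strand, the TATA box letters are held by 13.6% of all windows and the GC box letters by 35.7%. The window of *Cx3cl1* holds 0 matches to AP-1 (TGACTCA or TGAGTCA), the NF-κB motif, CRE (TGACGTCA), the interferon-stimulated response element, and CCAAT, which are held by 5.2%, 4.51%, 1.79%, 3.44%, and 37.4% of all windows. Counted from the annotated start, the TATA box letters lie at -6 to -1, directly before it, and the GC box letters at -27 to -22. These matches are a description of letters in this window, and whether they act in the promoter was not tested. *Tslp* had no entry among the promoter sequences.

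Transcripts of both genes were lower in HaCa4-sorted than in HaCa4 control, those of *Tslp* more so than those of *Cx3cl1*. HaCa4 control replicates 1 and 2 held *Tslp* at 85.20 and 98.49 TPM, and HaCa4-sorted replicates 1, 2, and 3 at 29.08, 19.62, and 25.78 TPM. The sorted libraries all lay below both controls, and the groups did not overlap. *Tslp* averaged 91.8 ± 9.40 TPM (SD, n = 2) without LECs and 24.8 ± 4.80 TPM (SD, n = 3) after co-culture, which is 27.0% of the control level, or 3.70-fold lower. For *Cx3cl1*, the controls had 218.33 and 276.71 TPM, and HaCa4-sorted replicates 1 to 3 had 111.00, 125.15, and 141.80 TPM. Again, every sorted library lay below both controls. *Cx3cl1* averaged 248 ± 41.3 TPM (SD, n = 2) without LECs and 126 ± 15.4 TPM (SD, n = 3) after co-culture, which is 50.9% of the control level, or 1.96-fold lower. In bulk samples, fewer cells with a transcript and less of it per cell cannot be told apart.

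**Figure D1:**
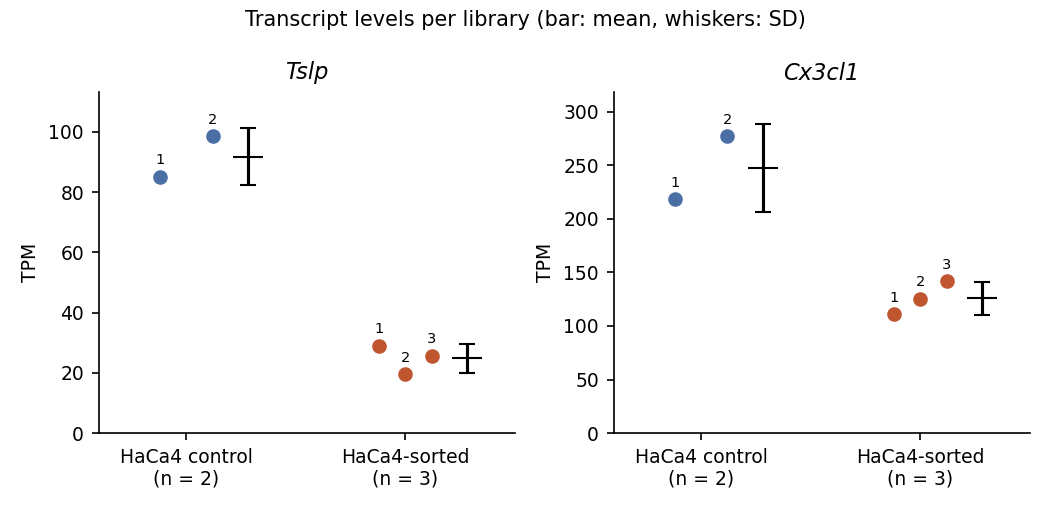
Transcript levels of *Tslp* and *Cx3cl1* in TPM (vertical axes, starting at 0) in each HaCa4 library, with points numbered by replicate and with the mean and SD beside them. The 3 sorted libraries of *Tslp* lie between 19.62 and 29.08 TPM and those of *Cx3cl1* between 111.00 and 141.80 TPM, below both controls of the same gene.

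The difference of the means on the log2(TPM + 1) scale, HaCa4-sorted minus HaCa4 control, was -1.86 for *Tslp* and -0.97 for *Cx3cl1*. When each of the 3 sorted libraries was set against each of the 2 controls, the 6 log2 ratios of TPM ran from -2.33 to -1.55 for *Tslp*. Those of *Cx3cl1* ran from -1.32 to -0.62. The ranges of the 2 genes therefore did not meet. The spread inside the groups was smaller than these differences, which describes genes chosen for this fall and does not test it. The 2 controls differed by 0.21 on the log2 scale in *Tslp* and by 0.34 in *Cx3cl1*, and the highest and lowest sorted libraries differed by 0.57 and 0.35.

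The sorted libraries did not rank alike for the 2 genes. *Tslp* was lowest in sorted replicate 2 and highest in replicate 1, whereas *Cx3cl1* was lowest in replicate 1 and highest in replicate 3. The ratio of *Tslp* to *Cx3cl1* within a library does not depend on how libraries are scaled to each other. This ratio was 0.390 and 0.356 in the controls and 0.262, 0.157, and 0.182 in HaCa4-sorted replicates 1 to 3. Each sorted value lay below both control values, with means of 0.373 ± 0.024 (SD, n = 2) and 0.200 ± 0.055 (SD, n = 3). *Cx3cl1* was thus the more abundant transcript throughout, by 2.56-fold and 2.81-fold in the controls and by 3.82-fold to 6.38-fold after co-culture.

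Among the 290 listed genes, 98 had a lower mean in HaCa4-sorted and 192 a higher one, and the median log2 difference of the 98 lower genes was -0.64. Both members were lower without overlap between the groups, as were 33.4% of the listed genes, while 63.1% were higher without overlap and 96.6% were separated in either direction. The study listed its genes on these libraries, so these shares are given beside the members and nothing is read from them. Ordered by the difference in log2(TPM + 1), *Tslp* had the second largest fall, after *Krt6b* and before *Mmp13*, and *Cx3cl1* was at place 13. This order depends on the pseudocount, the value added to TPM. With 0.1, *Krt6b* (-2.23) and *Tnip3* (-2.21) fell more than *Tslp* (-1.90). With 5, *Krt6b* (-1.15) fell less than *Tslp* (-1.71). *Krt6b*, a keratin of activated keratinocytes, had control levels of 14.30 and 9.09 TPM, below those of *Tslp*. By level, *Tslp* was at places 42 and 34 of 290 in the controls and at places 78, 101, and 99 in HaCa4-sorted. *Cx3cl1* moved from places 18 and 14 to places 30, 28, and 25.

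**Figure D2:**
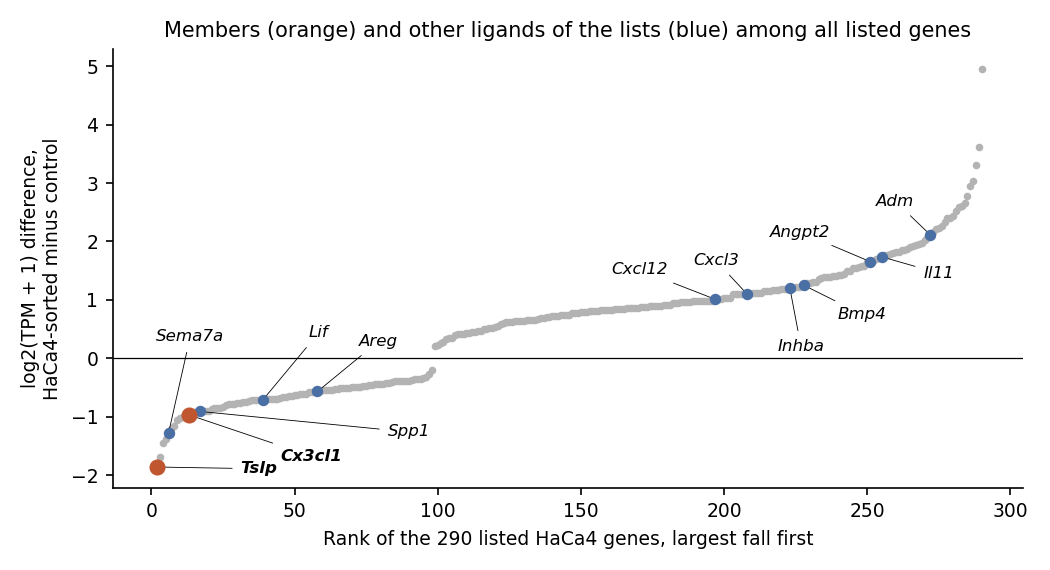
Log2(TPM + 1) difference, HaCa4-sorted minus HaCa4 control, of the 290 listed genes (vertical axis) against their rank from the largest fall to the largest rise (horizontal axis). *Tslp* at -1.86 and *Cx3cl1* at -0.97 are orange and the other ligands of the gene lists are blue, of which 4 lie below 0 and 7 above.

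Endothelial transcripts were measured beside the members, since HaCa4-sorted came from a mixed culture. Of 50 endothelial markers, 23 are among the listed genes, and their summed level was 4.77 and 3.46 TPM in HaCa4 control against 20.9, 304, and 134 TPM in HaCa4-sorted replicates 1 to 3. All 23 had a positive log2 difference. Of these, 20 did not overlap between the groups, beside 63.1% of all listed genes that were higher without overlap. Only 2 of the 23, *Emcn* and *Plvap*, passed the limma test described below, beside 15.9% of all listed genes that rose. A total of 8 of the 23, including *Cdh5*, *Emcn*, and *Flt4*, were listed at 0 in both controls, and 0 of the 23 were at 0 in a sorted library. The study listed its genes on these libraries, so a marker at 0 in both controls could be listed only as a higher gene. Markers that are not listed have no values here, and nothing is read from the shared direction of the 23. In sorted replicate 1, which had the least of these markers, *Tslp* was at 31.7% and *Cx3cl1* at 44.8% of the control mean. In sorted replicate 2, which had the most, they were at 21.4% and 50.6%, and in replicate 3 at 28.1% and 57.3%. In the library with the fewest endothelial transcripts, the fall of *Cx3cl1* was thus the largest of the 3 and that of *Tslp* the smallest. Over the sorted libraries, *Tslp* ran in the reverse order of the marker sum. The part of LEC transcripts in the values of the members was not tested. Of 39 keratinocyte markers, 4 are listed (*Krt6b*, *Krt8*, *Krt19*, and *Dsg3*), and all were detected in every HaCa4 library. Of these, *Krt6b* and *Krt8* fell and *Krt19* rose by limma, beside 14.1% of all listed genes that fell and 15.9% that rose. Of 12 leukocyte markers, 0 are listed. *Tslp* and *Cx3cl1* are not among the 191 genes listed for LECs, so their level in LECs was not analysed here.

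**Figure D3:**
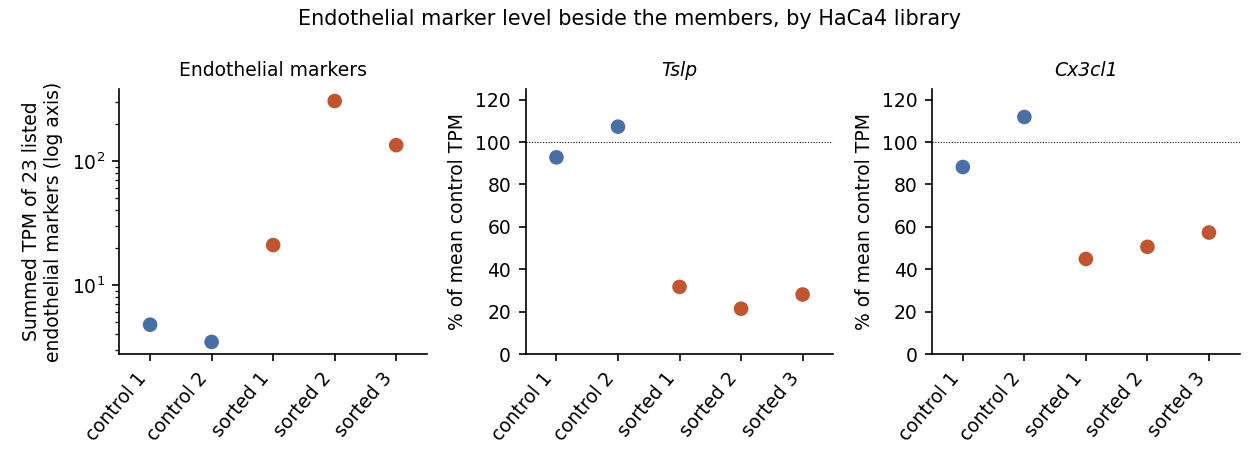
Summed TPM of the 23 listed endothelial markers (left, log axis) and the level of *Tslp* and *Cx3cl1* as a percentage of their control mean (middle and right, axes from 0) in each HaCa4 library, with controls in blue and sorted libraries in orange. Over the sorted libraries, the marker sum runs from 20.9 to 304 TPM, *Tslp* from 21.4% to 31.7%, and *Cx3cl1* from 44.8% to 57.3%. *Tslp* is lowest where the marker sum is highest.

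The listed genes nearest to each member were found from the log2(TPM + 1) values over the 5 HaCa4 libraries, each gene centred on its own mean, by the root-mean-square distance between profiles. For *Cx3cl1* the nearest was *Pdp1*, a phosphatase that activates pyruvate dehydrogenase, at a distance of 0.07 and with Pearson's r of 0.999 over 5 libraries. *Pdp1* had 15.55 and 18.63 TPM before and 8.09, 8.99, and 9.90 TPM after co-culture, the same order of libraries as in *Cx3cl1*. *C1qtnf12*, *Gm46894*, *Palmd*, and *Kcnn4*, a calcium-activated potassium channel, followed at distances of 0.07, 0.08, 0.11, and 0.11. *Tslp* had no neighbour as close. Its nearest gene was *Krt6b*, at a distance of 0.28 (r = 0.959), followed by *Sema7a* at 0.33, *Tnip3* at 0.38, *Palmd* at 0.44, and *Mgll* at 0.45. *Tnip3*, which encodes a binding partner of the NF-κB inhibitor A20, had control levels of 2.84 and 1.85 TPM and sorted levels of 0.60, 0.23, and 0.50 TPM. In *Krt6b*, *Sema7a*, and *Tnip3*, as in *Tslp*, sorted replicate 2 was the lowest library. *Tslp* and *Cx3cl1* were at a distance of 0.50 from each other (r = 0.934), which made *Cx3cl1* the tenth nearest to *Tslp*, and *Tslp* number 93 for *Cx3cl1*. With 5 libraries in 2 groups, these likenesses mostly restate the group difference and carry no p.

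**Figure D4:**
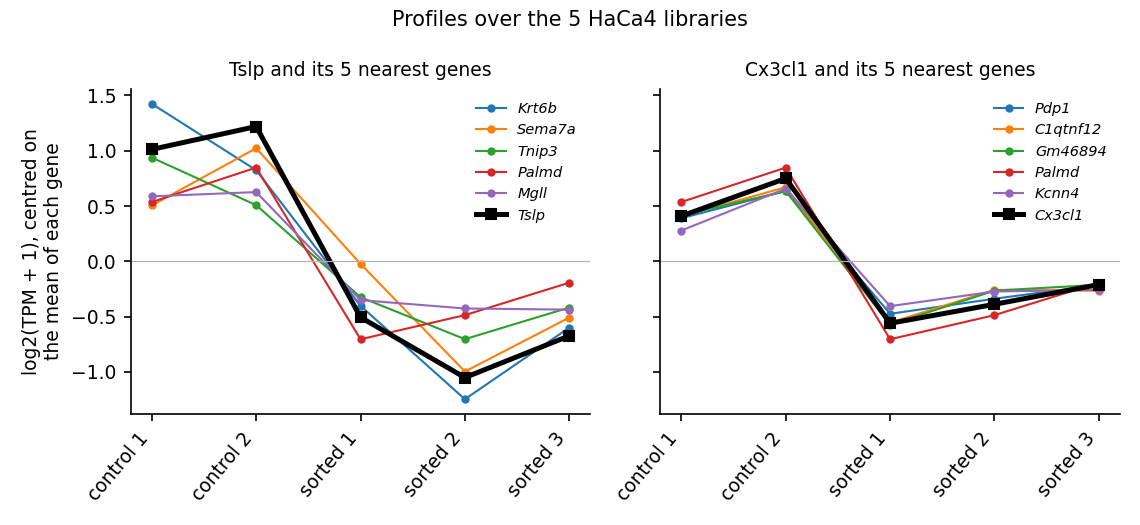
Log2(TPM + 1) values centred on the mean of each gene (vertical axis) over the 5 HaCa4 libraries (horizontal axis) for *Tslp* (left) and *Cx3cl1* (right), in black, each with its 5 nearest listed genes in colour. Lines join the values of one gene and imply no order, and the genes around *Cx3cl1* follow it within 0.07 to 0.11 root mean square while those around *Tslp* spread from 0.28 to 0.45.

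Other genes of the same pathways were followed through lists of 165 genes, of which 16 are among the genes listed for HaCa4 cells. They were compared by limma on log2(TPM + 1), two-sided, with p-values adjusted by the Benjamini-Hochberg method over all 290 listed genes. A call required an adjusted p no higher than 0.05 and an absolute log2 difference no smaller than 0.5. Of the 16 genes, 4 rose, 4 fell, and 8 did not pass, against 15.9% of all listed genes that rose and 14.1% that fell (30% in either direction). The study listed its genes on these same libraries, so a call describes a listed gene and is not an independent test of it. The median log2 difference of the 16 genes was 0.87, and that of all listed genes 0.74. The balance of rises and falls depends on how libraries are scaled, among the 16 genes and over all listed genes. With scaling to the same median over the listed genes, 2 of the 16 rose and 5 fell, beside 46 and 94 of the 290. With scaling by the median ratio of genes with at least 10 TPM, 5 rose and 0 fell by limma, beside 60 and 11 of the 290. In the latter scaling, 2 of the 16 with a lower level had an unadjusted p under 0.05. These calls depend on single libraries. Without HaCa4 control replicate 2 or without sorted replicate 3, 0 of the 290 listed genes were called by limma, although 70 and 126 had an unadjusted p under 0.05. Without control replicate 1, 6 of the 290 genes were called. Without sorted replicate 1, 194 of the 290 genes were called (146 higher, 48 lower), and 9 of the 16 pathway genes rose and 5 fell.

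Of 31 genes for TSLP reception, signalling, and type-2 partners, 1 is listed. This is *F2rl1*, which encodes PAR2, a protease-activated receptor of keratinocytes upstream of TSLP release. Its levels were 33.60 and 38.38 TPM in HaCa4 control against 68.65, 46.99, and 68.97 TPM in HaCa4-sorted, so that receptor and cytokine transcripts moved in opposite directions. Its log2 difference was 0.74 (standard error 0.20, adjusted p = 0.0405 from limma), but it turned to -0.11 when libraries were scaled to the same median. *Crlf2* and *Il7r* are not among the listed genes and were not analysed here.

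Of 15 genes for the fractalkine receptor, the proteases that release it, and its adhesion partners, 2 are listed, and 0 passed. *Icam1*, an adhesion receptor for leukocytes, had 0.14 and 0.10 TPM in HaCa4 control against 0.82, 7.27, and 3.46 TPM in HaCa4-sorted (log2 difference 1.86, adjusted p = 0.0621 from limma). *Itga4*, an integrin chain, reached at most 1.35 TPM. Both were highest in sorted replicate 2, as were the endothelial markers, and the part of the latter in these values was not tested.

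Of 31 other chemokine genes, 2 are listed, and *Cxcl3* and *Cxcl12* both had higher means where *Cx3cl1* had a lower one. *Cxcl3*, which attracts neutrophils, had control levels of 182.69 and 105.01 TPM, below those of *Cx3cl1*. In HaCa4-sorted, *Cxcl3* was at 290.83, 317.72, and 287.19 TPM, above *Cx3cl1* in each library. The log2 difference of *Cxcl3* was 1.10 (standard error 0.23, adjusted p = 0.0308 from limma), but it was 0.24 and did not pass when libraries were scaled to the same median. In LECs, *Cxcl3* had at most 0.70 TPM alone and between 7.84 and 52.38 TPM in LEC-sorted. *Cxcl12*, a homing chemokine, reached at most 2.41 TPM, in sorted replicate 2, and did not pass (adjusted p = 0.115 from limma). Its sorted libraries ranked as in the endothelial markers, and the part of LEC transcripts in its values was not tested.

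Of 65 other cytokine and growth factor genes, 9 are listed, of which 3 fell, 2 rose, and 4 did not pass. *Sema7a*, a membrane-anchored semaphorin, fell from control levels of 13.70 and 20.05 TPM to 9.19, 4.19, and 6.28 TPM (log2 difference -1.27, standard error 0.37, adjusted p = 0.0447 from limma). *Spp1*, which encodes osteopontin, was the most abundant of these transcripts. It had 4753.94 and 4854.74 TPM before and 3023.86, 1849.58, and 2993.62 TPM after co-culture (log2 difference -0.91, adjusted p = 0.0405 from limma). *Areg*, a ligand of the EGF receptor, fell from 205.30 and 221.78 TPM to 165.28, 128.02, and 140.20 TPM (log2 difference -0.57, adjusted p = 0.0366 from limma). With scaling by the median ratio, *Sema7a*, *Spp1*, and *Areg* had log2 differences of -1.04, -0.65, and -0.31 and did not pass. *Lif*, of the interleukin 6 family, had 42.88 and 24.89 TPM before and 22.64, 18.52, and 18.11 TPM after co-culture and did not pass (adjusted p = 0.0629 from limma).

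*Adm* and *Il11* had higher transcript levels in HaCa4-sorted and passed the test. *Il11*, of the same family as *Lif*, rose from control levels of 8.49 and 5.46 TPM to 41.66, 12.84, and 29.18 TPM (log2 difference 1.74, standard error 0.49, adjusted p = 0.0418 from limma). Its sorted replicate 1 was the highest and replicate 2 the lowest, the reverse of the order of the endothelial markers, as in *Tslp*, *Sema7a*, *Spp1*, and *Areg*. With scaling to the same median, the log2 difference of *Il11* was 0.95 and did not pass. *Adm*, which encodes the vasoactive peptide adrenomedullin, had a log2 difference of 2.11 (adjusted p = 0.0366 from limma) with 1.67 and 1.03 TPM in HaCa4 control against 5.77, 16.46, and 7.66 TPM in HaCa4-sorted. The sorted libraries ranked in *Adm* as in the endothelial markers, and LECs held *Adm* at 306.02 to 401.14 TPM alone and at 537.46 to 810.08 TPM in LEC-sorted. The part of LEC transcripts in the *Adm* values of HaCa4-sorted was not tested. *Inhba*, *Bmp4*, and *Angpt2* had positive log2 differences of 1.20, 1.25, and 1.66 and did not pass, and the groups overlapped in *Inhba*. *Bmp4* had 1.91, 5.55, and 3.94 TPM in HaCa4-sorted replicates 1 to 3, and at most 1.20 TPM in the controls. *Angpt2* had 2.43, 9.12, and 5.83 TPM, and at most 1.02 TPM in the controls. Both ranked as the endothelial markers did, and the part of LEC transcripts in them was not tested.

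Of 23 NF-κB and AP-1 factors, 2 are listed. *Ikbke*, a kinase of the NF-κB and interferon pathways, fell from 59.24 and 39.64 TPM to 26.75, 30.42, and 31.29 TPM (log2 difference -0.70, standard error 0.20, adjusted p = 0.0424 from limma). It was -0.45 and did not pass with scaling by the median ratio. *Fosl2*, an AP-1 subunit, had a log2 difference of 0.58 and did not pass (adjusted p = 0.0633 from limma), and it turned to -0.26 when libraries were scaled to the same median.

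**Figure D5:**
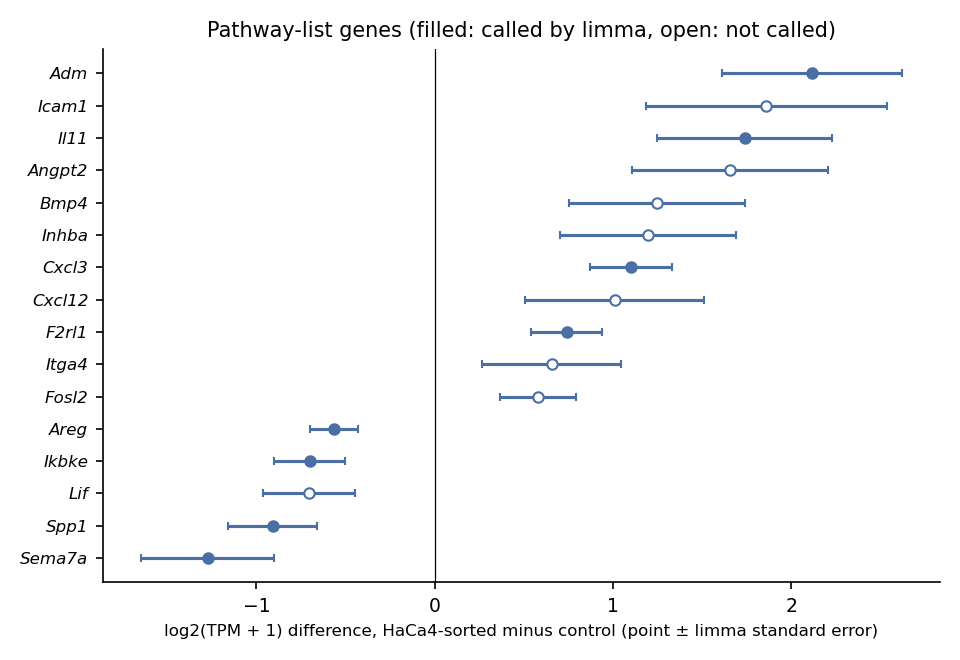
Log2(TPM + 1) difference, HaCa4-sorted minus HaCa4 control (horizontal axis, point with the standard error of limma), of the 16 listed genes of the pathway lists. Filled points passed the test and open points did not, and the called genes run from -1.27 (*Sema7a*) to 2.11 (*Adm*).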

How the data were processed

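RNA of 11 libraries was sequenced, of which the 5 HaCa4 libraries were compared here. Reads were filtered with SOAPnuke, aligned to GRCm38.p6 with HISAT2 2.0.4 (per the submitters' processing notes), and tested by the authors with DESeq2. The authors deposited TPM values per gene and library, rounded to 2 decimals, for 290 HaCa4 and 191 LEC genes. In the HaCa4 libraries these genes make up 1.84% to 2.39% of the whole TPM. The depth is unknown, so that precision rests on the spread between libraries. Whether the replicates were separate cultures is not given in the labels, and p-values measure only the spread between these samples. Replicates of 1 group shared the exact value, above 0, of 5 genes or fewer. The column of the second HaCa4 control carries the number 3, and the number 2 of its label was used.

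Differences were computed on log2(TPM + 1). limma 3.58.1 in R 4.3.3, with a mean-variance trend and no block, was fitted on all 290 genes and tested on simulated data. The members, lists, and tests were chosen with earlier results of these data known. Named genes were the members, the listed genes of the pathway lists, and the 5 nearest genes of each member. *Krt8*, *Krt19*, *Dsg3*, *Mmp13*, *Emcn*, *Plvap*, *Cdh5*, and *Flt4* were named as list members or rank neighbours after their values were seen. Because the genes are a selection, the adjusted p-values describe this selection. The alternatives were other pseudocounts, a filter on low values, scaling, no trend, a replicate block, medians, and leaving out each library. Promoter sequences came from RefSeq (GRCm38.p6), where 1 of the 2 members matched. Python 3.11.15, pandas 2.3.3, and matplotlib 3.10.9 were used.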

Additional observations from a re-analysis of the deposited data

Results flagged for a closer look

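Of the pathway-list genes listed both for HaCa4 cells and for LECs, *Lif* and *Ikbke* had log2 differences of opposite sign in the 2 cell lines. The others, *Cxcl3*, *Adm*, and *Fosl2*, had positive differences in both. For *Lif* and *Ikbke*, the 3 sorted libraries of each line lay on one side of all controls. The same held for 96.6% of the listed HaCa4 genes, and the share in LECs was not counted. The log2 difference of *Lif* was -0.71 in HaCa4 cells and 0.97 in LECs, where its levels were 7.43, 8.26, and 7.71 TPM alone against 17.89, 19.12, and 12.32 TPM in LEC-sorted. The log2 difference of *Ikbke* was -0.70 in HaCa4 cells and 1.22 in LECs, where its levels were 28.95, 56.91, and 32.81 TPM alone against 96.01, 102.25, and 73.55 TPM in LEC-sorted. Without HaCa4 control replicate 1 the HaCa4 values were -0.33 for *Lif* and -0.42 for *Ikbke*, and without control replicate 2 that of *Lif* was -1.09. *Lif* did not pass the limma test in HaCa4 cells, and no test was run here in LECs. The difference between the cell lines was not tested, and the values of the 2 lines come from separate listings.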

How the results depend on the processing

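*Tslp* and *Cx3cl1* stayed lower in HaCa4-sorted under each of 12 alternatives, and 10 of 12 moved the log2 difference by less than the SD between replicates. Both were chosen for this fall and their groups did not overlap. Leaving out a library, medians, and other pseudocounts therefore could not have changed its direction. The 12 were not all distinct. The replicate block gave the same values as leaving out sorted replicate 3 (-1.89 and -1.05). With the second control numbered 3, the block gave those found without sorted replicate 2 (-1.71 and -0.96). Scaling to the same median over the listed genes, which shifted all genes by a median of -0.72, gave -2.71 for *Tslp* and -1.83 for *Cx3cl1*. Scaling by the median ratio of genes with at least 10 TPM, chosen after seeing the data, shifted all genes by 0.22 and gave -1.60 and -0.70. Leaving out 1 library gave -1.98 to -1.71 for *Tslp*, -1.14 to -0.80 for *Cx3cl1*, and -1.14 to -0.77 for the log2 ratio of *Tslp* to *Cx3cl1* (-0.93 over all libraries). The number of listed genes called by limma, 87 (46 higher, 41 lower), was 177 with a pseudocount of 0.1 (120 higher, 57 lower), 33 with 5 (11 and 22), 140 after scaling to the same median (46 and 94), and 71 after scaling by the median ratio (60 and 11). Without the trend it was 0 by limma, with 161 genes at an unadjusted p under 0.05. It was 115 with the replicate block and 22 with the second control numbered 3, and the samples share only a number (correlations of deviations 0.23 and 0.28 over 290 genes for the 2 numbers). Leaving out 1 library gave 0 to 194. The cause of these changes was not tested. Of 310 repeats for 24 other named genes, 183 kept direction and call, 104 lost the call, 21 gained it, and 2 reversed (*F2rl1* to -0.11 and *Fosl2* to -0.26, both scaled to the same median). A left-out control leaves 1, which was assumed to vary like the sorted libraries.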
